A study of Mus musculus with 9 samples.

Results

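The 39 genes described here encode lysosomal hydrolases, the activators and carriers that work with them, membrane proteins of the lysosome and subunits of its proton pump. They were chosen as the rows of the deposited expression table whose gene symbol, split where a row carries several, equals one of 39 names, and each name was found once among 59445 features. They were sorted by role into 4 membrane proteins, 10 cathepsins and other proteases, 12 glycosidases and sulfatases, 8 lipid enzymes, activators and sterol carriers, 2 acid phosphatases and 3 proton pump subunits.

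RNA sequencing was run on macrophages taken from mouse liver after an acute toxic injury. All mice were C57BL/6 males that had received 1 intraperitoneal injection of carbon tetrachloride (CCl4), a compound that damages hepatocytes, at a labelled dose of 0.6 mg per kg, and no uninjected mice were analysed here. Cells positive for F4/80 and CD11b were sorted from the non-parenchymal fraction 24 h later. The 5 MAGL Mye-/- libraries (S8 to S12) came from mice aged 10 weeks (3 mice) or 11 weeks (2 mice), and the 4 MAGL fl/fl control libraries (S1, S3, S4 and S5) came from mice aged 11 weeks, a genotype that the labels also call WT. MAGL is monoacylglycerol lipase, the enzyme encoded by Mgll that releases arachidonic acid and other fatty acids from monoacylglycerols. The labels name the deletion as Mye-/-, and the driver that makes it is not given in the sources used here. The question put to these genes was whether their transcript levels differed between the genotypes.

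Lysosomes are acidic organelles that break down proteins, glycans, lipids and nucleic acids delivered by endocytosis, phagocytosis and autophagy. Their hydrolases are made in the secretory pathway, tagged with mannose 6-phosphate and sorted to the lysosome, where a vacuolar-type proton ATPase keeps the pH low and membrane proteins guard the limiting membrane and move products out. Macrophages are rich in lysosomes, and those of the injured liver take up dead hepatocytes. Transcription factors of the MiT/TFE family, among them TFEB and TFE3, bind a short element that holds the letters CACGTG in the promoters of many lysosomal genes.

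That element was read in the promoters of the lysosomal genes first, because it is the sequence feature that many of them share. RefSeq promoters (GRCm38.p6, 250 bases before to 50 bases after the annotated start) were matched for 33 of the 39 genes. The letters CACGTG, which read the same on both strands, were in the window of 12 of the 33 genes (36.4%), against 2187 of 27025 mouse genes (8.09%). The longer form TCACGTG, searched on both strands, was in 10 of the 33 (30.3%), against 1160 of 27025 genes (4.29%), and every match to it overlaps a match to CACGTG. By role, the hexamer was found in 2 of 4 membrane proteins, 4 of 8 proteases with a promoter, 5 of 12 glycosidases and sulfatases, 0 of 6 lipid genes, 0 of 2 acid phosphatases and the 1 pump subunit with a promoter. The 12 genes were Lamp1, Mcoln1, Ctsa, Ctsd, Ctsf, Ctsl, Gaa, Gla, Glb1, Naglu, Sgsh and Atp6v0d1. A match describes the letters in this window and is not evidence of binding. A promoter is shown for 4 of the genes, picked after the matches were seen: a membrane protein with 4 copies, a cation channel and a protease with 2 copies each, and the pump subunit that had the smallest p of the pump members. Each is written 5′ to 3′ on the strand of its gene, with the letters CACGTG in capitals.
Lamp1 promoter, chr8:13158911-13159210, plus strand: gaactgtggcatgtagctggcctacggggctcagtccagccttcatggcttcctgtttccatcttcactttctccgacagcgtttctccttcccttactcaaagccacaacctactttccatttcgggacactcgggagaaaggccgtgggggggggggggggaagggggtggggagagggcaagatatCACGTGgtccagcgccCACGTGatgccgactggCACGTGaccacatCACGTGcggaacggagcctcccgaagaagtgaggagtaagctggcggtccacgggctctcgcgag
Mcoln1 promoter, chr8:3500269-3500568, plus strand: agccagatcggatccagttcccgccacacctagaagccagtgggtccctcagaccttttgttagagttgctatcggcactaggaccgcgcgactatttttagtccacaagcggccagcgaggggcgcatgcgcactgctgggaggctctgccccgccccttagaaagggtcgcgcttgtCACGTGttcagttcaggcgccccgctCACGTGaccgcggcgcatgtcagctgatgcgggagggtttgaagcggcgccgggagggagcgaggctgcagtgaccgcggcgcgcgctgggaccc
Ctsd promoter, chr7:142387778-142388077, minus strand: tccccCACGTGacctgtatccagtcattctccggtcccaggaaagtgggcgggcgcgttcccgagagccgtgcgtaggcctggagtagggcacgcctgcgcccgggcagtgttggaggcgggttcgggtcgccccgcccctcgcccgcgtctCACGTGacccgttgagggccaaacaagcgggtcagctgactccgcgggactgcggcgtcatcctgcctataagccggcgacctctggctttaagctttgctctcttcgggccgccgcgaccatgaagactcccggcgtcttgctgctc
Atp6v0d1 promoter, chr8:105566015-105566314, minus strand: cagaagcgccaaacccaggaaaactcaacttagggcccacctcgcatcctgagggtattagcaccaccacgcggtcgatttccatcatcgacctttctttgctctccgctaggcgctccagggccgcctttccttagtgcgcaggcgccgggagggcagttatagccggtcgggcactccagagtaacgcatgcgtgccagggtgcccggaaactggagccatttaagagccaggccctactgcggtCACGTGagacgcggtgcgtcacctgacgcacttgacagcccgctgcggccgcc
In the Lamp1 window the 4 copies began 61, 45, 28 and 15 bases before the start, and in the Mcoln1 window the 2 copies began 71 and 45 bases before it. The 2 copies of the Ctsd window began 245 and 98 bases before the start, and the single copy of the Atp6v0d1 window began 3 bases before it. The median log2 fold change, Mye-/- over fl/fl, was 0.08 for the 10 genes with the longer form and 0.04 for the 23 without it. An unadjusted limma p under 0.05 was found for 1 of the 10 and 2 of the 23, beside 10.5% of all features tested. None in either set had an adjusted p under 0.05, beside 0.0196% of all features.

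Library totals ran from 33383559 to 46489349 reads and 14240 to 16802 features were detected per library. Values are read counts that the authors divided by 1 size factor per library, called normalized reads below. All 11 genes of a macrophage list were detected, with a summed level of 349046 to 448464 normalized reads in Mye-/- and 490037 to 620960 in fl/fl libraries, ranges that did not overlap. Lyz2, the macrophage lysozyme, made up much of that sum, with 204782, 143570, 158053, 184054 and 154677 normalized reads in Mye-/- against 221530, 422118, 290262 and 301765 in fl/fl libraries (limma adjusted p = 0.218). In this list only Lyz2 (-0.84) and Cd14 (-0.15) had log2 fold changes, Mye-/- over fl/fl, below 0. All other genes of the list had fold changes above 0, so the lower sum does not describe the list as a whole. Adgre1, which encodes F4/80, averaged 6443 ± 1054 normalized reads in Mye-/- and 5433 ± 658 in fl/fl libraries (SD, n = 5 and 4), and Itgam, which encodes CD11b, 49711 ± 4679 in Mye-/- and 48739 ± 7072 in fl/fl libraries. All 7 Kupffer cell genes were detected, but their sum was 205 to 1992 in Mye-/- and 63.3 to 615 in fl/fl libraries, with Timd4 at 0 in 8 of 9. At an unadjusted limma p under 0.05, 3 of the 5 tested were higher in Mye-/- and 0 lower, against 6.38% and 4.13% of all features. These were Clec4f, Cd5l and Marco (limma adjusted p = 0.273, 0.388 and 0.454), each at or near 0 in some fl/fl libraries. Clec1b had a log2 fold change below 0 (-2.48). The 8 genes of a monocyte list had the largest sum of all marker lists in every library. It was 580692 to 945423 in Mye-/- and 562807 to 842013 in fl/fl libraries. Genes of lists for other cell types were detected as well. Erythroid and platelet genes summed to 2593 to 6901 in Mye-/- against 5908 to 35204 in fl/fl libraries (8 genes detected), and the 13 neutrophil genes to 20331 to 43599.5 in Mye-/- against 30979 to 52784 in fl/fl libraries. Nearly all of the neutrophil sum came from S100a8, S100a9, Csf3r and Mmp8. The other genes of that list reached at most 578 normalized reads (Retnlg in Mye-/- S11), and Ly6g was at 0 outside fl/fl S3 (1.19). The 10 hepatocyte genes summed to 1279 to 12008 in Mye-/- against 662 to 1920.4 in fl/fl libraries, with the highest in S10. Their part in the results below was not tested, and in bulk libraries fewer cells of a type and less RNA per cell cannot be told apart. Mgll itself was near the detection limit, with 30.4, 46.6, 5.93, 42.7 and 0 normalized reads in Mye-/- against 18.6, 0, 106.5 and 22.8 in fl/fl libraries, so it gives no check of the labels. Libraries S1 and S3, both fl/fl, stood apart among the lysosomal genes, as described below, and also bounded the share of reads from mitochondrial genes, which was lowest in S1 (3.49%), highest in S3 (9.45%) and 3.93% to 7.09% in Mye-/- libraries.

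The lysosomal genes together took 1.51%, 1.43%, 1.87%, 1.64% and 1.83% of all reads in the Mye-/- libraries S8 to S12, against 2.05%, 1.30%, 1.83% and 1.59% in the fl/fl libraries S1, S3, S4 and S5. The fl/fl libraries held both the highest and the lowest share, and the means were 1.66% ± 0.19 in Mye-/- and 1.69% ± 0.32 in fl/fl libraries (SD, n = 5 and 4). Of the reads of the 39 genes, 63.6% ± 2.57 in Mye-/- and 64.9% ± 5.04 in fl/fl libraries came from only 4 of them, Psap, Ctsb, Ctsd and Npc2.

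To rank the lysosomal genes by level, values were divided by transcript length and are given as normalized reads per kb. Psap, the precursor of the saposins that present sphingolipids to their hydrolases, ranked first at 76891 ± 14154 per kb in Mye-/- and 87973 ± 25696 in fl/fl libraries. Ctsd, the main aspartic protease of the lysosome, followed at 26845 ± 2353 per kb in Mye-/- and 26799 ± 6406 in fl/fl libraries, and Ctsb, a cysteine protease, at 18867 ± 1803 per kb in Mye-/- and 19141 ± 3051 in fl/fl libraries. Npc2, the soluble sterol carrier, came next at 15055 ± 1469 per kb in Mye-/- and 15908 ± 3487 in fl/fl libraries. Its spread overlapped that of the fifth, the aminopeptidase Ctsh, at 12113 ± 1369 per kb in Mye-/- and 12845 ± 1495 in fl/fl libraries. All 9 values of Psap lay above those of every other member, whereas the ranges of Ctsd and Ctsb, and of Ctsb and Npc2, overlapped. At the other end stood Ctsf, the bone collagenase Ctsk and Atp6v0d2, an osteoclast form of a pump subunit. Ctsk reached 56.6 ± 32.3 per kb in Mye-/- and 61.9 ± 64.2 in fl/fl libraries, Ctsf 5.18 ± 8.44 in Mye-/- and 15.8 ± 22 in fl/fl libraries, and Atp6v0d2 had 25.6 normalized reads in Mye-/- S11 and 0 in the other 8 libraries.

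**Figure D1:**
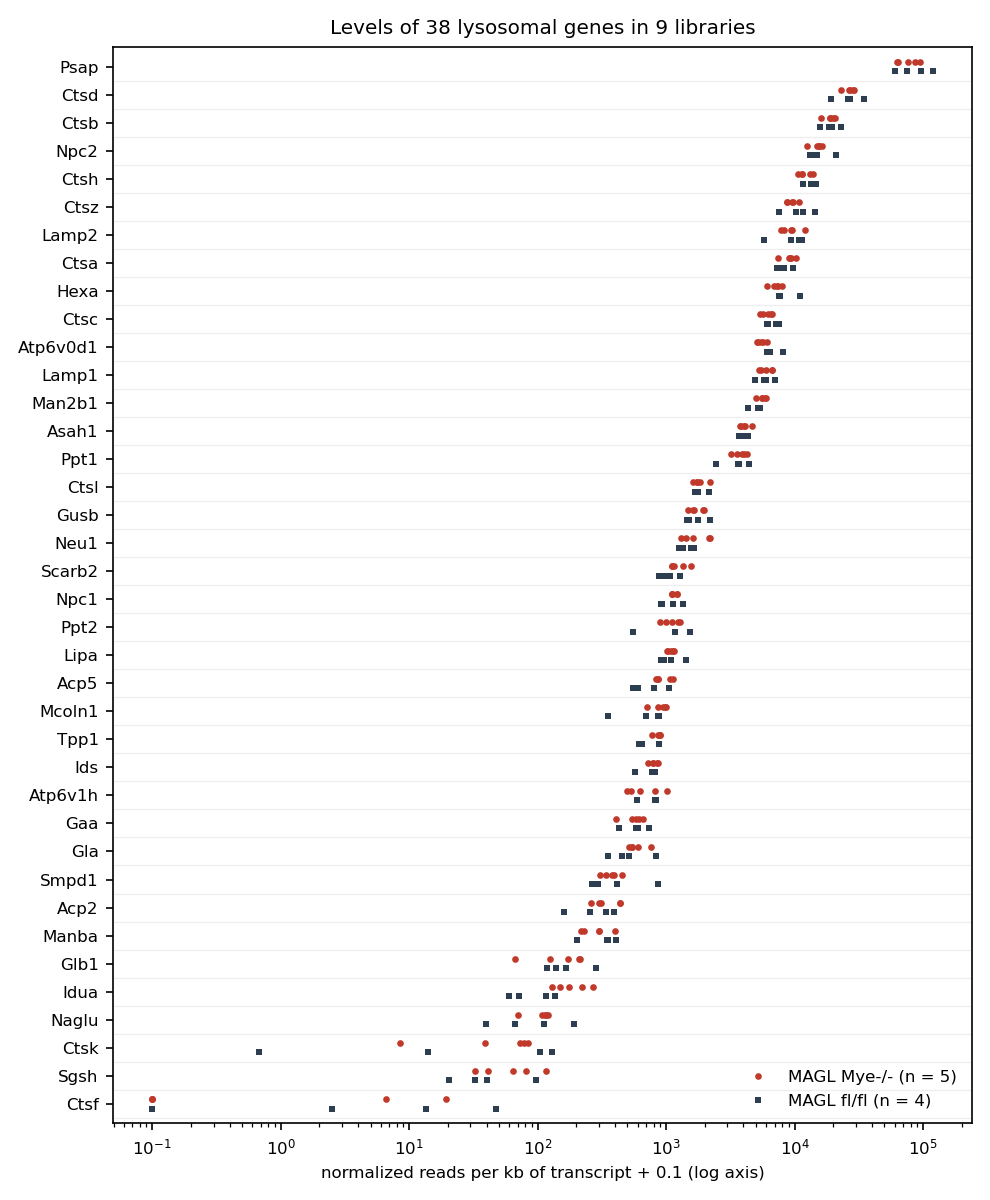
Normalized reads per kb of transcript (log axis, offset by 0.1 so that zeros can be drawn) of the 38 lysosomal genes tested, ordered by their mean, with circles for the 5 Mye-/- and squares for the 4 fl/fl libraries. Psap lies above all others, the genotypes overlap in every row, and Ctsf and Ctsk scatter down to 0 or near it.

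No lysosomal gene passed the test. Differences were tested with limma on log2(normalized value + 1), two-sided, with Benjamini-Hochberg adjustment over the 15288 features that reached 10 normalized reads in at least 4 libraries, and a fold change is given on that log2 scale as Mye-/- over fl/fl. Of the 39 genes, 38 passed that filter, and 0 had an adjusted p under 0.05, where 0.0196% of all features tested did (3 of 15288). DESeq2 and edgeR's quasi-likelihood test on the recovered reads also called 0 of the 38 (2 each at an unadjusted p under 0.05), while DESeq2 called 0.996% and edgeR 0.0131% of all features they tested. At an unadjusted p under 0.05 limma had 2 members higher (Idua and Tpp1), against 6.38% of all features, and 1 lower (Atp6v0d1), against 4.13% of all features, so 3 of 38 stood beside 10.5% of all features in either direction. No member had all values of one genotype above all values of the other, a pattern that 1.7% of all features showed upward and 1.6% downward. The fold changes were above 0 for 23 and below 0 for 15 members, with a median of 0.03. Over all features tested they were above 0 for 8353 and below 0 for 6935, with a median of 0.06. These p-values measure the spread between the libraries, and the labels do not describe the mice further than as separate samples.

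In the fit without a covariate the difference was bounded within 1.5-fold for most of the lysosomal genes. Intervals with age as a covariate are not given here, and 3 of the 5 Mye-/- mice but no fl/fl mice were aged 10 weeks. The 95% interval of the difference lay within 1.5-fold in both directions for 22 of the 38 genes (57.9%), against 18.4% of all features tested. For the other 16 it reached past 1.5-fold in at least 1 direction. Among the 32 lysosomal genes with a mean of at least 500 normalized reads the share was 22 of 32 (68.75%), against 38.98% of features with such a mean, and for all 32 the interval lay within 2-fold, against 86.7% of such features. In 29 of the 38 the difference between the genotype means on the log2 scale was smaller than the SD within genotypes (76.3%), a share close to the 73.9% of all features tested.

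**Figure D2:**
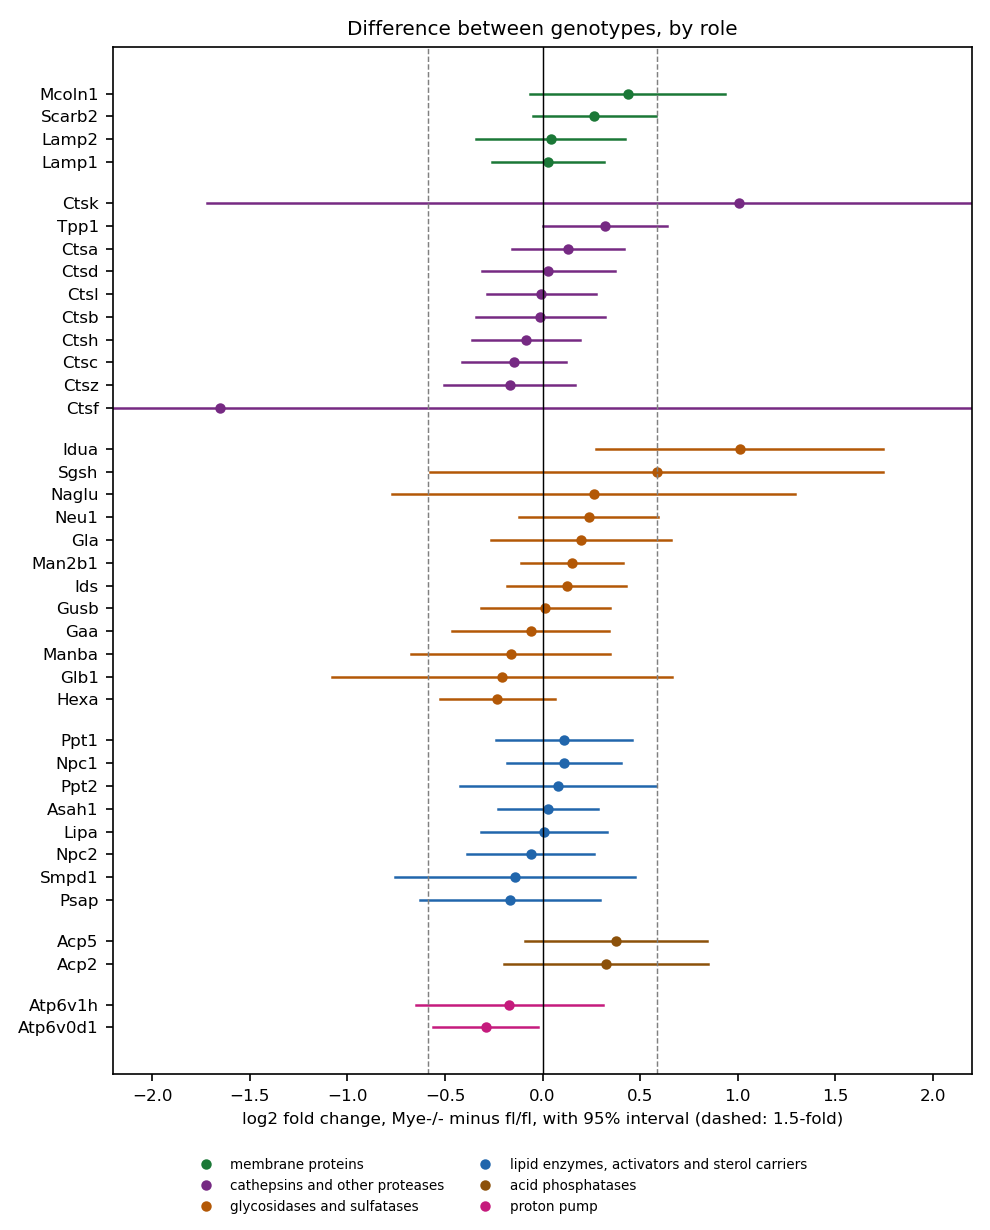
Log2 fold change (Mye-/- over fl/fl) with its 95% interval from limma for the 38 lysosomal genes tested, grouped by role, with dashed lines at 1.5-fold. Most intervals of the membrane proteins, proteases and lipid genes lie between the dashed lines, and those of Ctsk and Ctsf run past the axis.

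The 4 membrane proteins all had fold changes above 0, with a median of 0.15 and none called. Lamp1 (chr8:13159161-13175338), one of the heavily glycosylated proteins that line the limiting membrane, had 12293, 11735, 14852, 13249 and 14928 normalized reads in Mye-/- libraries S8 to S12, against 15727, 10934, 13382 and 12784 in fl/fl libraries S1, S3, S4 and S5. The highest and the lowest value were both fl/fl, in S1 and S3, and the fold change was 0.03 (SE 0.14, 95% interval -0.26 to 0.31, limma adjusted p = 0.963). Its partner Lamp2, an isoform of which is the receptor of chaperone-mediated autophagy, had 26522, 20909, 17169.5, 18121 and 20304 normalized reads in Mye-/- against 12664, 24869, 20599.8 and 23589.9 in fl/fl libraries. Here S1 was the lowest of the 9 and S3 the second highest, the reverse of Lamp1, and the fold change was 0.04 (SE 0.18, limma adjusted p = 0.957).

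Scarb2, which carries beta-glucocerebrosidase to the lysosome, had 6412, 5247, 5185, 7380.2 and 5446 normalized reads in Mye-/- against 5976, 4142, 4616 and 5015 in fl/fl libraries. Every Mye-/- value lay above 3 of the 4 fl/fl values, and S1 overlapped the Mye-/- range. Its fold change was 0.26 (SE 0.15, limma adjusted p = 0.549). Mcoln1 (chr8:3500506-3515235), the cation channel that releases calcium from the lysosome, had 1478, 1775, 1942, 2076 and 2022 normalized reads in Mye-/- against 732, 1801, 1829 and 1432 in fl/fl libraries. S1 alone was far below the rest, S3 and S4 lay inside the Mye-/- range and S5 just below it, and the fold change of 0.44 (SE 0.24, limma adjusted p = 0.536) became 0.19 (SE 0.20, adjusted p = 0.818) without S1 and S3.

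Among the 10 proteases 4 had fold changes above and 6 below 0, with a median of -0.01 and none called. Ctsb (chr14:63122462-63145921) had 88754, 75944, 95159.8, 89346 and 98224 normalized reads in Mye-/- against 109214, 74142, 92109.5 and 87673 in fl/fl libraries. The fl/fl values enclosed all 5 Mye-/- values, with S1 highest and S3 lowest, and the fold change was -0.01 (SE 0.16, 95% interval -0.34 to 0.32, limma adjusted p = 0.986). Ctsd (chr7:142375911-142387901) showed the same order, with 54661, 46694, 58704, 53757 and 57924 normalized reads in Mye-/- against 70752, 39135, 54754 and 52381 in fl/fl libraries and a fold change of 0.03 (SE 0.16, 95% interval -0.31 to 0.37, limma adjusted p = 0.968). The sign of a fold change this near 0 is not settled: it was -0.12 for Ctsd without S3 and 0.08 for Ctsb without S1.

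Tpp1 (chr7:105744820-105752235), a tripeptidyl peptidase that is mutated in a neuronal ceroid lipofuscinosis, was the protease with the smallest p. It had 3169.7, 2763, 3154, 3207 and 3064 normalized reads in Mye-/- against 2195, 2329, 3149 and 2261 in fl/fl libraries. Mye-/- values were tightly grouped and above S1, S3 and S5, whereas S4 lay inside the Mye-/- range. The fold change was 0.32 (SE 0.15, 95% interval 0.00 to 0.64, limma adjusted p = 0.472), and 0.20 (SE 0.17, adjusted p = 0.76) without S1 and S3. Ctsz, a carboxypeptidase, averaged 13762 ± 1222 normalized reads in Mye-/- and 15845 ± 4139 in fl/fl libraries (SD, n = 5 and 4), with a fold change of -0.17 (SE 0.16, limma adjusted p = 0.745). Ctsc, the dipeptidyl peptidase that activates granule serine proteases, averaged 17437 ± 1621 in Mye-/- and 19286 ± 1982 in fl/fl libraries, with a fold change of -0.14 (SE 0.13, limma adjusted p = 0.721). The cysteine proteases Ctsl and Ctsh and the carboxypeptidase Ctsa, which protects beta-galactosidase and sialidase in a complex, had fold changes of -0.01, -0.08 and 0.13, each with an interval inside 1.5-fold. Ctsf was at 0 in Mye-/- S8, S9 and S10 and in fl/fl S1, and Ctsk was at 12.7 normalized reads in Mye-/- S10 and 0.873 in fl/fl S4. Their fold changes depend on the pseudocount and are not given as levels of change.

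Among the 12 glycosidases and sulfatases 8 had fold changes above and 4 below 0, with a median of 0.14 and none called. Idua (chr5:108660329-108685446), the alpha-L-iduronidase that degrades heparan and dermatan sulfate, had the smallest p of all 39 genes. It had 437, 501, 750.3, 909 and 591 normalized reads in Mye-/- against 202, 240.0, 459 and 390.1 in fl/fl libraries. S1, S3 and S5 lay below every Mye-/- library, and S4 exceeded only the lowest Mye-/- library, S8. The mean was 638 ± 192 in Mye-/- and 323 ± 122 in fl/fl libraries (SD, n = 5 and 4), with a fold change of 1.01 (SE 0.35, 95% interval 0.28 to 1.74, limma adjusted p = 0.332). It was 0.54 (SE 0.35, adjusted p = 0.68) without S1 and S3 and 0.73 (SE 0.51, adjusted p = 0.976) in the 11-week-old mice alone. Idua lies across Slc26a1 and Dgkq on the opposite strand, and whether the counting used strand is not given in the sources used here. Slc26a1 was at 0 in every library, and Dgkq averaged 542 ± 221 normalized reads in Mye-/- and 369 ± 76.9 in fl/fl libraries, with a fold change of 0.46 (limma adjusted p = 0.699).

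Other enzymes of heparan sulfate breakdown in the list were the beta-glucuronidase Gusb, the sulfatases Ids and Sgsh and the glucosaminidase Naglu. Gusb averaged 3527 ± 434 normalized reads in Mye-/- and 3519 ± 684 in fl/fl libraries, with a fold change of 0.01 (95% interval -0.32 to 0.34, limma adjusted p = 0.985). The fold changes of Ids, Sgsh and Naglu were 0.12 (95% interval -0.18 to 0.43), 0.58 (-0.58 to 1.75) and 0.26 (-0.77 to 1.29), with limma adjusted p-values of 0.804, 0.746 and 0.881. Sgsh and Naglu were low, at 287 ± 144 and 271 ± 52.3 normalized reads in Mye-/- against 204 ± 146 and 261 ± 168 in fl/fl libraries, and their intervals did not exclude 2-fold. Hexa, the alpha subunit of the hexosaminidase that degrades a ganglioside, had 14537, 12181, 13832, 14922 and 15982 normalized reads in Mye-/- against 21848, 15431, 15268 and 15133 in fl/fl libraries. S1 stood alone above the other 8 libraries, and the fold change was -0.23 (SE 0.14, limma adjusted p = 0.575).

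Man2b1, the alpha-mannosidase, was the second most abundant glycosidase per kb and averaged 21372 ± 1481 normalized reads in Mye-/- and 19269 ± 1828 in fl/fl libraries (SD, n = 5 and 4), with a fold change of 0.15 (SE 0.12, limma adjusted p = 0.701). Neu1, the sialidase, averaged 4304 ± 999 in Mye-/- and 3596 ± 431 in fl/fl libraries, with a fold change of 0.24 (SE 0.17, limma adjusted p = 0.651). Gaa, which digests glycogen, had a fold change of -0.06, the beta-mannosidase Manba -0.16 and the alpha-galactosidase Gla 0.20, none called. The row of Glb1, the beta-galactosidase, is shared with Tmppe, whose reads cannot be told apart from it, and its fold change was -0.21 (95% interval -1.08 to 0.66).

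**Figure D3:**
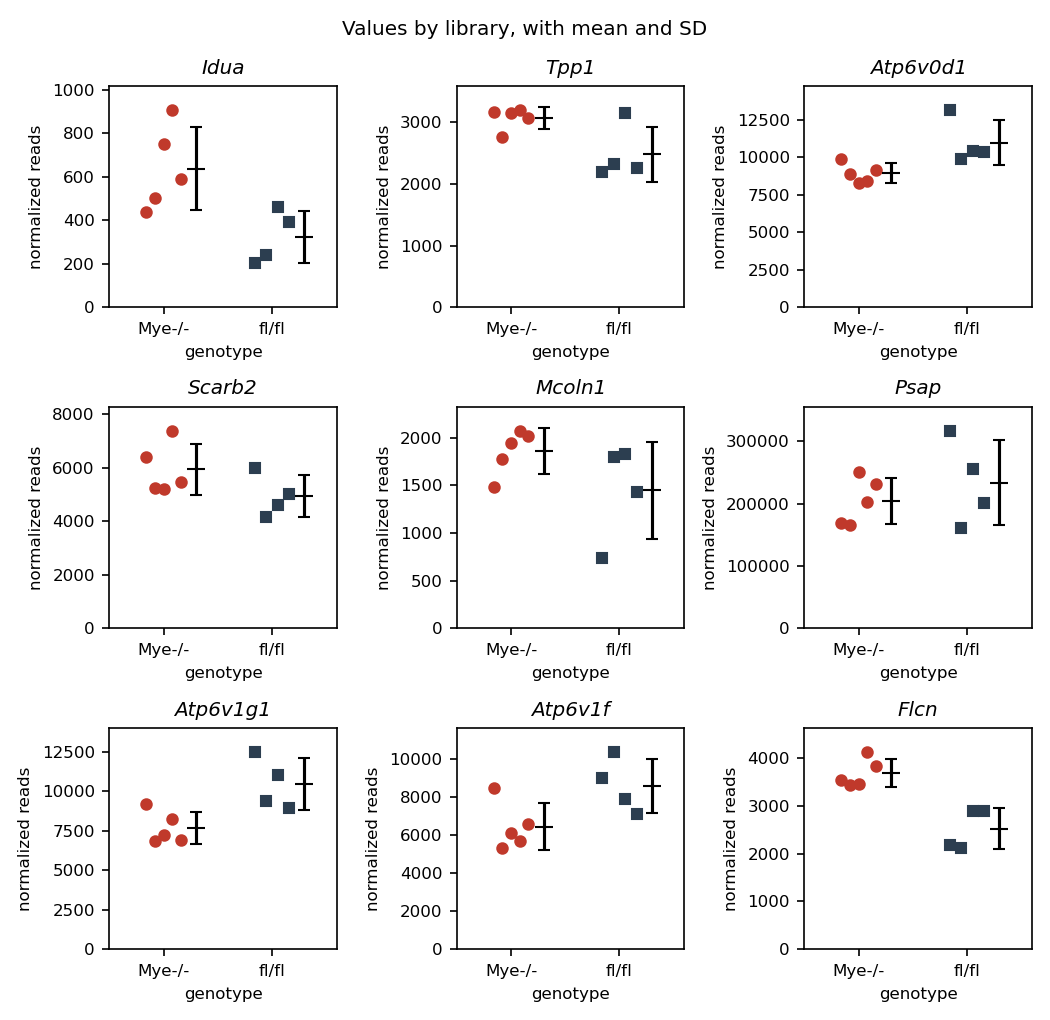
Normalized reads of 9 lysosome genes in each library, with circles for Mye-/- and squares for fl/fl in the order S8 to S12 and S1, S3, S4, S5, and with bars for the mean and SD. The genotypes overlap for the 6 member genes in the upper rows, and among the 3 other lysosome genes below Flcn alone has no overlap.

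The 8 lipid enzymes, activators and sterol carriers had a median fold change of 0.02, with 5 above and 3 below 0 and none called, and in all 8 the difference was smaller than the SD within genotypes. MAGL is itself a lipase, so the interval of each of the 8 is given. Psap (chr10:60277628-60302599) had 169413, 165546, 250839, 202717 and 231822 normalized reads in Mye-/- against 317043, 160070, 256056 and 200749 in fl/fl libraries. S1 was the highest and S3 the lowest of the 9 libraries, and the fold change was -0.17 (SE 0.22, 95% interval -0.63 to 0.29, limma adjusted p = 0.823). Lipa, the acid lipase that frees cholesterol and fatty acids from cholesteryl esters and triglycerides, had 3228, 3067, 3037, 3343 and 3421 normalized reads in Mye-/- against 2693, 2845, 4231 and 3215 in fl/fl libraries. S1 and S3 lay below and S4 above all 5 Mye-/- values, with a fold change of 0.01 (95% interval -0.31 to 0.33, limma adjusted p = 0.991).

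Npc1 and Npc2, the membrane and soluble proteins that hand cholesterol out of the lysosome, averaged 6014 ± 282 and 49668 ± 4847 normalized reads in Mye-/- against 5638 ± 1057 and 52481 ± 11505 in fl/fl libraries. Their fold changes were 0.11 (95% interval -0.18 to 0.40) and -0.06 (-0.39 to 0.26), with limma adjusted p-values of 0.82 and 0.915. Asah1, the acid ceramidase, and Smpd1, the acid sphingomyelinase, had fold changes of 0.03 (-0.23 to 0.28) and -0.14 (-0.76 to 0.47). Smpd1 had 2090.2 normalized reads in fl/fl S1 and 643 to 1085 in the other 8 libraries. The thioesterases Ppt1, which removes fatty acids from acylated proteins, and Ppt2 had fold changes of 0.11 (-0.24 to 0.46) and 0.08 (-0.42 to 0.58). For Ppt2 the range was set by fl/fl libraries at both ends, with 2380.3 normalized reads in S1 and 863 in S3.

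Both acid phosphatases had fold changes above 0. Acp5, the tartrate-resistant enzyme of osteoclasts and activated macrophages, had 1151, 1195, 1462, 1193 and 1547 normalized reads in Mye-/- against 758, 827, 1453 and 1101 in fl/fl libraries. S1, S3 and S5 lay below every Mye-/- library and S4 was inside the Mye-/- range, with a fold change of 0.38 (SE 0.22, limma adjusted p = 0.563). Acp2 averaged 1628 ± 387 normalized reads in Mye-/- and 1339.9 ± 475 in fl/fl libraries (SD, n = 5 and 4), with a fold change of 0.33 (SE 0.25, limma adjusted p = 0.678). Without S1 and S3 the median of the pair was -0.03, against 0.35 with all libraries.

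Both proton pump members tested had fold changes below 0, without a call, and their median became 0.04 with age as a covariate. Atp6v0d1 (chr8:105524461-105566064), a subunit of the sector in the membrane, had 9907, 8910.3, 8263, 8405 and 9179.8 normalized reads in Mye-/- against 13181, 9902, 10444 and 10379 in fl/fl libraries. The genotypes met only where Mye-/- S8 reached 9907 and fl/fl S3 had 9902, and S1 was again the highest. The fold change was -0.29 (SE 0.13, 95% interval -0.56 to -0.02, limma adjusted p = 0.444), and -0.19 (SE 0.19, adjusted p = 0.976) in the 11-week-old mice alone. Atp6v1h, which belongs to the cytosolic sector, had 1478, 899, 972, 1133 and 1856 normalized reads in Mye-/- against 1069, 1476, 1522 and 1486 in fl/fl libraries. The Mye-/- values enclosed the fl/fl values, and the fold change of -0.17 (SE 0.23, limma adjusted p = 0.826) became 0.27 in the 11-week-old mice.

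The rest of the pump was read from a list of 18 other subunits and accessory proteins, of which 16 were tested. The fold changes were below 0 for 11 and above 0 for 5, with a median of -0.15 against 0.06 over all features, and 0 were called. At an unadjusted p under 0.05 limma had 2 of the 16 lower, against 4.13% of all features, and 0 higher, against 6.38%. Atp6v1g1, of the stalk between the sectors, had 9189, 6832, 7219, 8273 and 6916 normalized reads in Mye-/- against 12513, 9401, 11062 and 8930.1 in fl/fl libraries, with overlap only of Mye-/- S8 with fl/fl S5 and a fold change of -0.44 (SE 0.14, limma adjusted p = 0.297). Atp6v1f, a subunit of the rotor, had 8470.2, 5322, 6087, 5652 and 6571 normalized reads in Mye-/- against 8974, 10358, 7888 and 7082 in fl/fl libraries, where again Mye-/- S8 reached into the fl/fl range, and a fold change of -0.42 (SE 0.15, limma adjusted p = 0.347). Atp6v0e was lower in all 5 Mye-/- libraries (7079 to 8026) than in all 4 fl/fl libraries (8103 to 10926), a pattern of 1.6% of all features, with a fold change of -0.25 (SE 0.13, limma adjusted p = 0.507). S1 was the highest library in 9 of the 16, where it was the highest for 18.0% of all features and for 23.4% of those with a mean of at least 500.

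**Figure D4:**
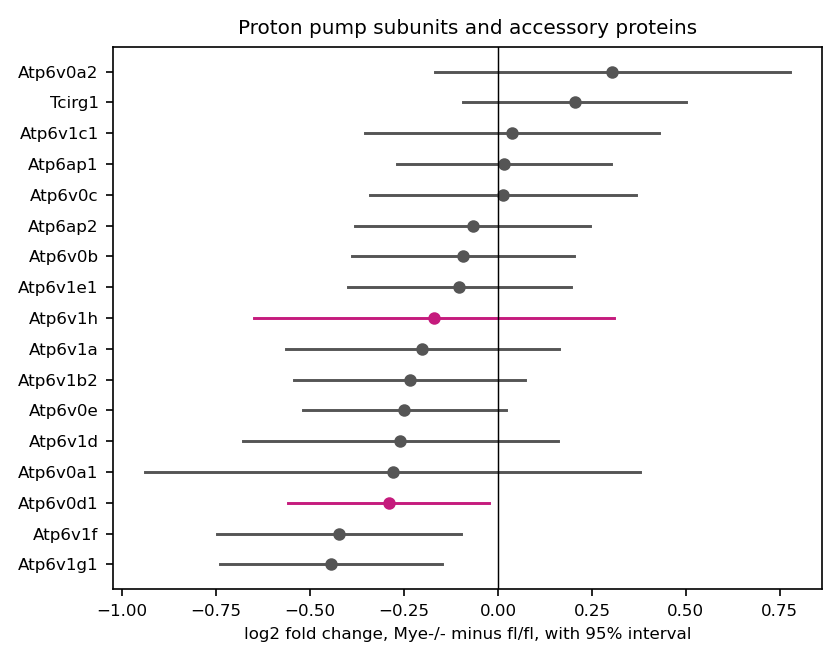
Log2 fold change (Mye-/- over fl/fl) with its 95% interval from limma for the 17 proton pump genes with a mean of at least 300 normalized reads, members in magenta and other subunits in grey. The estimates run from 0.30 for Atp6v0a2 to -0.44 for Atp6v1g1, and the intervals of Atp6v0d1, Atp6v1f and Atp6v1g1 lie below 0.

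For many of the lysosomal genes the most extreme libraries were fl/fl. S1 was the highest of the 9 libraries for 13 of the 38 genes (34.2%), against 18.0% of all features tested, and S3 was the lowest for 8 (21.1%), against 13.8%. Both held for Lamp1, Ctsb, Ctsd, Ctsz, Psap and Ppt2, that is 6 of 38, against 446 of 15288 features. The log2 difference of S1 over S3 was 1.46 for Ppt2, 1.07 for Smpd1, 0.99 for Psap, 0.94 for Ctsz and 0.85 for Ctsd. The opposite pattern, with S1 the lowest of 9, was seen for 9 genes (23.7%, against 15.6% of all features), namely Lamp2, Mcoln1, Tpp1, Idua, Manba, Lipa, Npc1, Ppt1 and Acp5. Among these S1 over S3 was -1.30 for Mcoln1, -0.97 for Lamp2 and -0.86 for Ppt1. So Psap, Ctsb, Ctsd, Ctsz and Lamp1 were at their highest in the library where Lamp2, Mcoln1 and Ppt1 were at their lowest. The background shares were higher among features with a mean of at least 500 normalized reads. There S1 was the highest for 12 of 32 members (37.5%), against 23.4% of such features, and S3 the lowest for 8 (25%), against 15.3%. Both held for 6 of the 32, against 273 of 7198 such features. S1 was the lowest for 8 of the 32 (25%), near the 20.6% of such features. S1 also had the lowest and S3 the highest mitochondrial share, and the part of that share in this order was not tested.

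**Figure D5:**
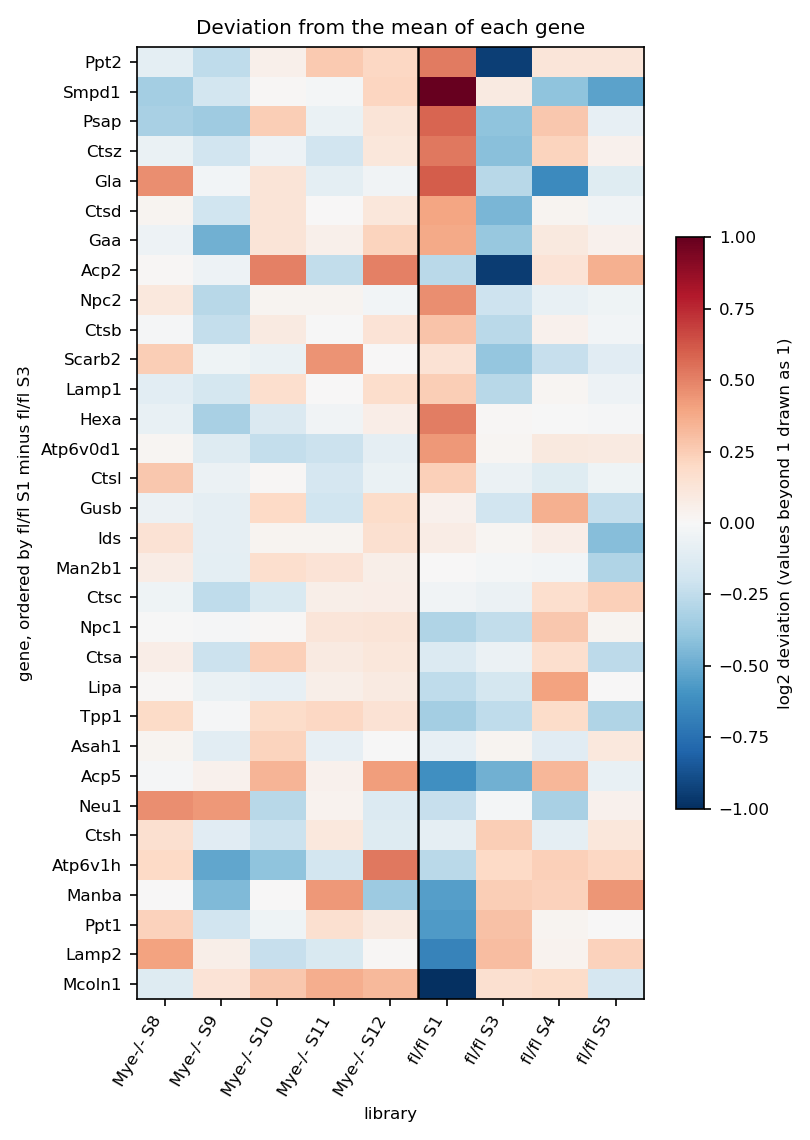
Deviation of each library from the mean of the gene, on the log2 scale (colours stop at 1), for the 32 lysosomal genes with a mean of at least 500 normalized reads, ordered from the highest to the lowest difference of fl/fl S1 over fl/fl S3. For Ppt2, Psap, Ctsz and Ctsd in the upper rows S1 is the highest and S3 the lowest library, and for Mcoln1 and Lamp2 in the lower rows S1 is the lowest.

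Likeness between members was described over the same 9 libraries by the correlation of log2 values, with no test, since all genes share the same libraries, depth and cell mix. The members most like Lamp1 were Ctsb (r = 0.95), Ctsd (0.92) and Gaa (0.92), and those most like Ctsb were Gaa (0.97), Ctsd (0.97) and Lamp1. Lamp2 was instead most like Ppt1 (0.81), and Npc1 most like Lipa (0.92) and Acp5 (0.89). The 3 genes most like Idua were Tpp1 (0.83), Acp5 (0.82) and Npc1 (0.74), all with S1 as their lowest library. Atp6v0d1 was most like Hexa (0.81), and both had their highest value in S1.

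The other genes of the lysosome were read from lists of 117 genes, of which 107 were tested. Of these, 61 had fold changes above and 46 below 0, the median was 0.08, and 0 were called by limma or edgeR. DESeq2 called 1 of the 106 to which it gave an adjusted p, Rragd, described below. At an unadjusted p under 0.05 limma had 8 higher and 3 lower, beside 6.38% and 4.13% of all features. Rragd, which passed the filter only through Mye-/- libraries, is among the 8. Among 27 other membrane proteins tested, 22 had fold changes above 0 (median 0.18), where 8353 of all 15288 features tested did (median 0.06). At that threshold 3 of the 27 were higher and 1 lower. They were Cln3, a membrane protein named for a neuronal ceroid lipofuscinosis, with 5534 ± 475 normalized reads in Mye-/- and 4288 ± 710.4 in fl/fl libraries and a fold change of 0.38 (SE 0.14, limma adjusted p = 0.357), the sialic acid exporter Slc17a5 (0.84, adjusted p = 0.424), the cysteine importer Mfsd12 (1.57, adjusted p = 0.414) and, in the lower direction, Tmem9 (-1.45, adjusted p = 0.467). Mfsd12 had 24.4 normalized reads in fl/fl S4, against 271 to 548 in the other fl/fl libraries and 305 to 877 in Mye-/- libraries. Tmem9 was low, at 47.0 to 106 in Mye-/- and 87.9 to 409 in fl/fl libraries.

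The 17 other glycosidases, sulfatases and glycan enzymes had 9 fold changes above and 8 below 0. Among those with the smallest p were the sulfatase Arsk (0.81, limma adjusted p = 0.456) and Fuca1, a fucosidase (-0.31, adjusted p = 0.476). Of 7 other proteases 0 reached an unadjusted p under 0.05, with Lgmn, the asparaginyl endopeptidase that processes cathepsins, first at 0.26 (limma adjusted p = 0.615), ahead of Prcp (-0.13) and Dpp7 (0.18). The 7 other lipid enzymes and activators also had 0, with Naaa, an acid amidase, at -0.22 (limma adjusted p = 0.572), Pld4 at 0.11 and Pld3 at 0.16, and for all 7 the 95% interval lay within 1.5-fold. The 11 genes of mannose 6-phosphate tagging and sorting had 0 as well, with Ap1g1, of the clathrin adaptor at the Golgi, at 0.35 (limma adjusted p = 0.556), Gnptab at 0.19 and Gga3 at 0.22. The 4 cathepsin inhibitors tested, of 8 listed, all had fold changes below 0, beside 6935 of 15288 features, and 0 reached an unadjusted p under 0.05. Cstb had the smallest p, at -0.24 (SE 0.12, limma adjusted p = 0.503), with Cst3 at -0.11 and Cst7 at -1.09. Stfa3 was at -0.64 (SE 2.06) with 0 to 42.6 normalized reads in Mye-/- and 0 to 75.2 in fl/fl libraries, so its direction is not settled. Cst7 was low, at 15.4 to 91.6 normalized reads in Mye-/- and 91.4 to 115 in fl/fl libraries.

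Neither of the regulators Tfeb and Tfe3 was called. Tfeb averaged 1711 ± 498 normalized reads in Mye-/- and 1545 ± 311 in fl/fl libraries (SD, n = 5 and 4), with a fold change of 0.11 (limma adjusted p = 0.886), and Tfe3 averaged 5351 ± 630.2 in Mye-/- and 5511 ± 1487 in fl/fl libraries, with -0.01 (adjusted p = 0.993). Of the 18 genes of MiT/TFE regulation and lysosomal nutrient sensing, 10 had fold changes above and 8 below 0. At an unadjusted p under 0.05 limma had 3 higher, against 6.38% of all features, and 0 lower, against 4.13%. Flcn, folliculin, which with its partner Fnip1 regulates the Rag GTPases that hold TFE3 and TFEB in the cytoplasm, had 3551, 3449, 3463, 4139 and 3843 normalized reads in Mye-/- against 2185, 2111, 2891 and 2894 in fl/fl libraries. All 5 Mye-/- values lay above all 4 fl/fl values, a pattern of 1.7% of all features, but the fold change of 0.56 (SE 0.15) was not called (limma adjusted p = 0.218). Fnip1 averaged 2669 ± 306 in Mye-/- and 2088 ± 516 in fl/fl libraries, with a fold change of 0.38 (SE 0.18, limma adjusted p = 0.47). Rragd, one of those GTPases, had 0, 37, 76.3, 94 and 46.1 normalized reads in Mye-/- and 0 in all 4 fl/fl libraries, close to the detection limit. It was called by DESeq2 and not by limma (limma adjusted p = 0.366). Rragd passed the filter of 10 normalized reads in at least 4 libraries only through Mye-/- libraries, so its direction was fixed in advance. Neither its place among the 3 genes higher nor its DESeq2 call is therefore evidence of a difference.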

How the data were processed

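Transcripts of sorted liver macrophages were measured by RNA sequencing in 9 libraries. The deposited table holds a signal: read counts which the authors scaled by 1 size factor for each library with DESeq, per the submitters' processing notes, neither logged nor corrected for length. Those notes also list STAR 2.4.0, SAMtools, Picard and FastQC; the headers name the mm10 build and FAST DB gene models. The counter, strand setting and treatment of duplicates are not given in the sources used here, and 12 of the 39 genes overlap another coding gene. Every nonzero value was a whole multiple of 1 read within a tolerance of 0.01 (100% of values), which gave back whole reads. Between 66.1% and 68.3% of low counts were even, and no molecular identifiers are mentioned, so single reads are not independent molecules.

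The 2 genotypes were compared with limma 3.58.1 (R 4.3.3, intensity trend) on log2(value + 1). The test was two-sided with no covariate, on the 15288 features that reached 10 in 4 or more libraries, with Benjamini-Hochberg adjustment over all of them and a threshold of 0.05. Lengths are the median of protein-coding GENCODE M21 transcripts. The 39 genes, role groups and lists of other genes were chosen with earlier results of these data known. The rule for members to name took the 3 of each role with the smallest p and the 2 highest per kb. Values per library are given for part of these, chosen after their values were seen, and for Lipa; the others have a mean and SD or a fold change. Of other lists up to 3 genes with the smallest p were named, and Tmem9, Stfa3, Tfeb and Tfe3 besides. Scripts were tested on simulated data. The 27 alternatives covered pseudocounts, filters, scalings, weights, age, detected features, edgeR 4.0.16, DESeq2 1.42.0, voom and libraries left out, of which leaving out S1 and S3 together was chosen after seeing the data.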

Additional observations from a re-analysis of the deposited data

Results flagged for a closer look

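In 9 of 124 groups of values (a gene in a genotype), 1 library stood apart from the others of its genotype by the gap to its nearest neighbour relative to the range (Dixon's criterion at 95%), where chance gives about 5% of groups. In Mye-/- libraries, S9 was lowest for Naglu (179 normalized reads) and for Cst3 (39177). In fl/fl libraries, S1 was highest for Hexa (21848) and Atp6v0d1 (13181) and lowest for Atp6v1h (1069) and Gnptab (2453). S5 was lowest for Man2b1 (16546) and Ids (2853), and S4 was highest for Tpp1 (3149).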

How the results depend on the processing

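No paired analysis was possible because the genotypes share no replicate numbers. The count of lysosomal genes called stayed at 0 under all 27 alternatives, and their median fold change stayed within 1 SD between libraries of 0.03. The count at an unadjusted p under 0.05 was 3 and became 1 with a mean of at least 500, 1 without the trend, 1 with array weights, 0 with age as a covariate, 5 with detected features as a covariate and 0 in 11-week-old mice only (2 Mye-/- libraries). Leaving out 1 library at a time gave 1 to 5, with 1 without Mye-/- S10 or S11 and 5 without fl/fl S4. All features called numbered 3 and became 17 with a pseudocount of 8 or 50, 12 with a mean of at least 500, 6 with TMM scaling, 8 with quantile normalization, 21 without the trend, 9 with robust limma, 5 with array weights, 0 with age, 0 with detected features, 0 in 11-week-old mice, 146 with DESeq2, 8 with voom and 9 without S1 and S3. Leaving out 1 library gave 0 to 20, with 0 without Mye-/- S8 or S10, 1 without S11, 5 without S9, and 7, 5 and 20 without fl/fl S1, S3 and S5.

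With age as a covariate, and equally in 11-week-old mice, role medians became 0.25 for membrane proteins, 0.26 for glycosidases and 0.04 for the pump, whose sign turned. With detected features the glycosidase median became 0.02, and without S1 and S3 that of the phosphatases became -0.03. Of 566 values of named members 25 changed sign, and none of those was called. These were Lamp2 with array weights (-0.0207) and without S1 and S3 (-0.11), Ctsb with quantile normalization (0.0009), age (0.0542) and 11-week-old mice (0.0542), Ctsd with detected features (-0.0083), Npc2 with quantile normalization (0.0234), age (0.0082), 11-week-old mice (0.0082) and without S1 and S3 (0.0328), Npc1 (-0.10) and Acp2 (-0.10) without S1 and S3, and Atp6v1h with age (0.27) and in 11-week-old mice (0.27). With 1 library left out, values ran from -0.0593 to 0.12 for Lamp1, -0.17 to 0.15 for Lamp2, -0.11 to 0.0809 for Ctsb, -0.12 to 0.17 for Ctsd, -0.14 to 0.0805 for Npc2 and -0.0586 to 0.23 for Ppt1. The cause was not tested. The intervals of Ctsf, Ctsk, Naglu and Glb1 did not exclude 1.5-fold in either direction. Ctsf had 0 to 108 reads in a library, and the part of depth in these intervals was not tested.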
